A study of Mus musculus with 6 samples.

Results

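The genes described here are the splicing regulators of cultured germinal center-like B cells: the SR proteins and their TRA2 relatives, the nuclear SR-related proteins, the CLK and SRPK kinases, the hnRNPs, the PTBP proteins, and the SF3 and U2AF subunits that recognize the branch point and the 3′ splice site. They were taken by symbol (every row whose name starts with Srsf, Hnrnp or Sf3, plus 17 named kinases and factors), which gave 57 of the 24499 genes in the count table, and all 57 had enough counts to be tested.

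Bulk polyA RNA was sequenced from 3 cKO and 3 control cultures. The cKO cells came from Eif3e fl/fl Cγ1Cre Rosa26-YFP LSL mice. The control cells are labelled as control, with cgWT in the library names, and their full genotype is not given. Elsewhere the study uses Cγ1Cre Rosa26-YFP LSL mice for this purpose. Naive B cells of the spleen were grown for 3 days on 40LB feeders, a fibroblast line that carries CD40L and BAFF and was irradiated with 120 Gy, with 1 ng/ml IL-4, and YFP+ cells were then sorted. Cγ1Cre turns on in activated B cells once the Ighg1 locus is transcribed, so YFP marks cells in which Cre had acted in either group. Age and sex are not given. The labels do not tie libraries to animals, so p-values measure the spread between these samples.

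SR proteins bind exonic enhancers through RNA recognition motifs and carry a tail rich in arginine and serine, and most hnRNPs bind pre-mRNA to block or reposition splice sites. CLK and SRPK kinases phosphorylate the SR tail, which sets where SR proteins reside and how they act. Many of these genes also splice their own transcripts into forms that are degraded or kept in the nucleus, so the level of the gene and the form of the transcript are both of interest.

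Library totals were 39079582 to 45504570 counts. Eif3e, the deleted eIF3 subunit, stood at 173, 150 and 152 CPM (counts scaled to library size, with TMM factors) in the cKO libraries and at 424, 401 and 392 in the control libraries, which is 39% of control (log2 fold change -1.36 ± 0.0657 SE, adjusted p = 6.71e-07). Whole-gene counts include exons outside a deleted segment, and the remaining signal was not resolved by exon. All 8 B cell markers were tested, 4 higher and 3 lower in cKO, with summed levels of 4850 to 5100 CPM in cKO and 4710 to 5070 CPM in control. The summed level of 6 germinal center B cell markers was 265 to 281 CPM in cKO and 338 to 413 CPM in control, with 1 higher and 4 lower. Of 6 plasma cell markers 5 were tested, 2 higher and 3 lower, with sums of 648 to 783 and 836 to 855 CPM; Irf4, which makes up most of that sum, was at 491 to 607 CPM in cKO and 373 to 453 CPM in control, and Jchain at 5.84 to 9.96 and 86.6 to 139 CPM. Of 14 feeder fibroblast markers 11 were tested, 3 of them higher and 0 lower, with sums over the list of 114 to 140 and 83.8 to 151 CPM. Fbn1 was at 3.07 to 4.57 CPM in cKO and at 0 in the control libraries. Fn1 was at 35.8 to 46.4 against 13.7 to 22.5 CPM, and Col5a1 at 4.8 to 6.16 against 1.58 to 2.15 CPM. Thy1, at 11.4 to 22.7 against 22.9 to 31.6 CPM, and Col1a1, at 37.3 to 40.9 against 30 to 64.5 CPM, did not pass as lower. Of 7 T cell markers Lck alone was tested and was lower, at 23.1 to 25.7 against 36.5 to 39.3 CPM, while Cd3d, Cd3g, Cd4 and Cd8a were at or near 0. Of 6 myeloid markers 3 were tested, 1 of them higher. Whether cell state or feeder RNA had a part in the differences below was not tested, and in bulk RNA fewer cells of a type cannot be told apart from less RNA per cell. Xist was high in cKO 2, control 1 and control 2 and near 0 in the other libraries, so each set holds both groups but 1 arm of each is a single library.

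Of the 57 members, 25 were higher and 15 lower in cKO at an adjusted p under 0.05 (edgeR quasi-likelihood test, Benjamini-Hochberg over 13296 genes), and 17 did not pass. Across all genes tested, 24.1% were higher and 24.5% lower, so the members' higher share of 43.9% lay above that background while their lower share of 26.3% lay near it. The members and the background were not matched for count level, which affects how small a change can pass. The changes were small. Only 4 members, all higher, also exceeded 1.5-fold, against 10.4% of all genes higher and 10.6% lower by that rule. The median log2 fold change was 0.14 over the members and -0.004 over all genes tested. For 43 members the 3 cKO libraries did not overlap the 3 control libraries, where 58.7% of all genes tested behaved so. Together the members took 2.14% to 2.21% of each cKO library's counts and 1.98% to 2.07% of each control library's.

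**Figure D1:**
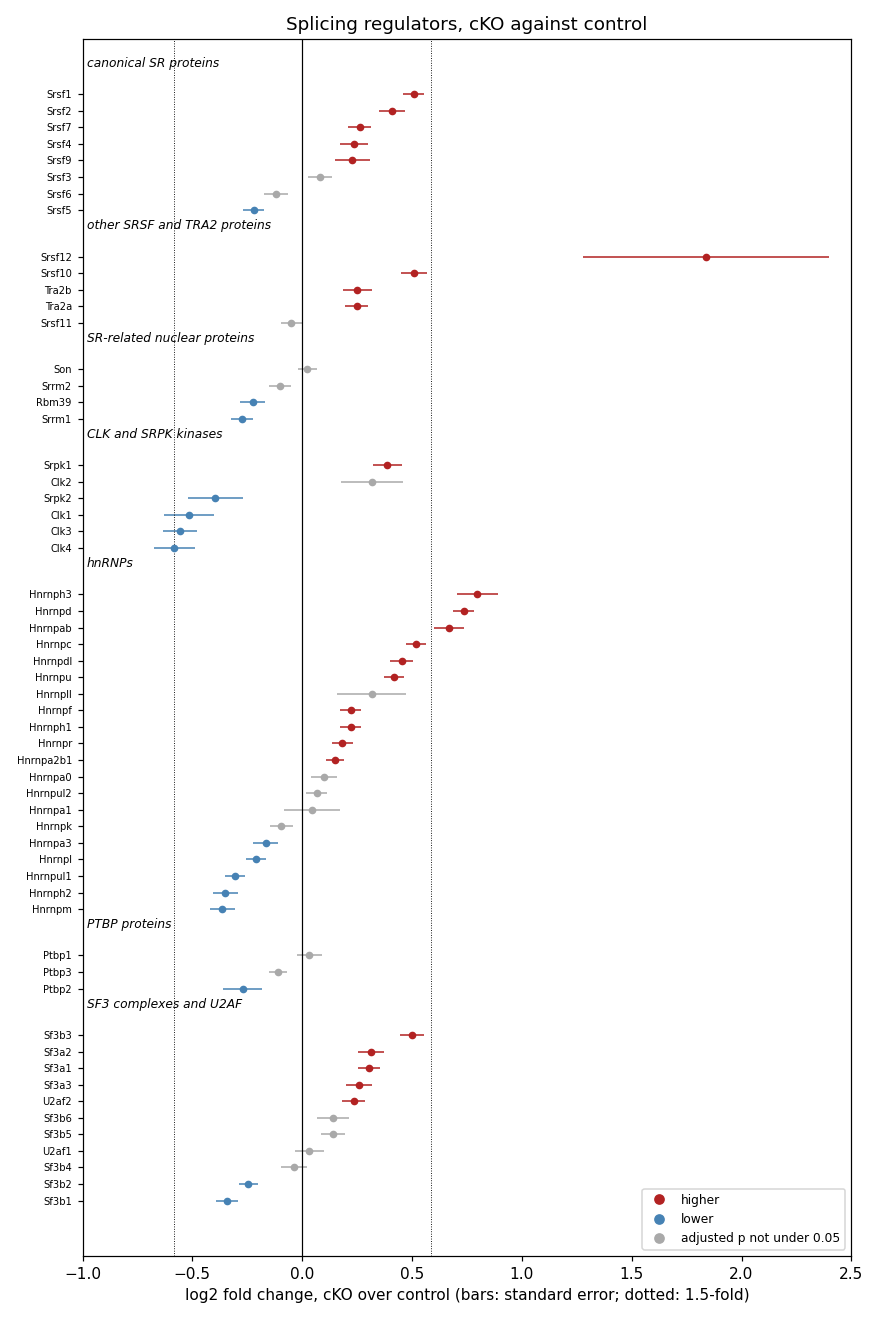
Log2 fold change (cKO over control) with its standard error for each of the 57 members, grouped by role, with dotted lines at 1.5-fold. Red points were higher, blue points lower and grey points did not pass; Srsf12 lies farthest right at 1.84, and 3 CLK kinases form the left edge.

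The largest group-wise fall was among the kinases. Of 6 kinases 4 fell, 1 rose and 1 did not pass, and their median log2 fold change was -0.46. The lower share was 66.7%, against 24.5% of all genes tested, and the higher share 16.7%, against 24.1%. Clk4, one of the CDC-like kinases that phosphorylate SR proteins in the nucleus, was at 35.0, 39.4 and 42.5 CPM in cKO and 52.9, 59.5 and 62.8 CPM in control. The groups did not overlap, and its log2 fold change was -0.58 ± 0.0931 (adjusted p = 0.00053), just inside the 1.5-fold limit. Clk3 was at 63.6, 71.8 and 72.0 CPM against 99.0, 112 and 94.3 CPM, and again each cKO library lay below each control library (log2 fold change -0.56 ± 0.0765, adjusted p = 0.000205). Clk1, the best studied member of the family, was at 111, 125 and 138 CPM against 148, 184 and 203 CPM (log2 fold change -0.52 ± 0.113, adjusted p = 0.00354).

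Clk2 had the opposite sign to its relatives and did not pass the adjusted test. It stood at 49.3, 55.5 and 62.5 CPM in cKO and 34.4, 51.0 and 48.8 CPM in control, with 1 pair of libraries out of order, and its log2 fold change of 0.32 had a 95% interval of 0.004 to 0.63 with an adjusted p of 0.088 in edgeR; in DESeq2 it passed (adjusted p = 0.0292). A read-through row that spans Clk2 and its neighbour Scamp3 shares sequence with it, so the split between them is uncertain; the 2 rows summed to 106 ± 1.78 CPM in cKO and 96.2 ± 3.40 CPM in control (mean ± SD, n = 3). The SRPK kinases, which act on SR proteins mainly in the cytoplasm, moved apart. Srpk1 was at 70.1, 72.2 and 72.8 CPM in cKO and 57.5, 56.1 and 50.8 CPM in control and rose (log2 fold change 0.39 ± 0.0652, adjusted p = 0.000747). Srpk2 was at 49.7, 36.4 and 34.1 CPM against 51.1, 53.5 and 53.4 CPM and fell (log2 fold change -0.40 ± 0.126, adjusted p = 0.0248), but it no longer passed when any 1 of 5 libraries was left out, cKO 1 being the exception.

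**Figure D2:**
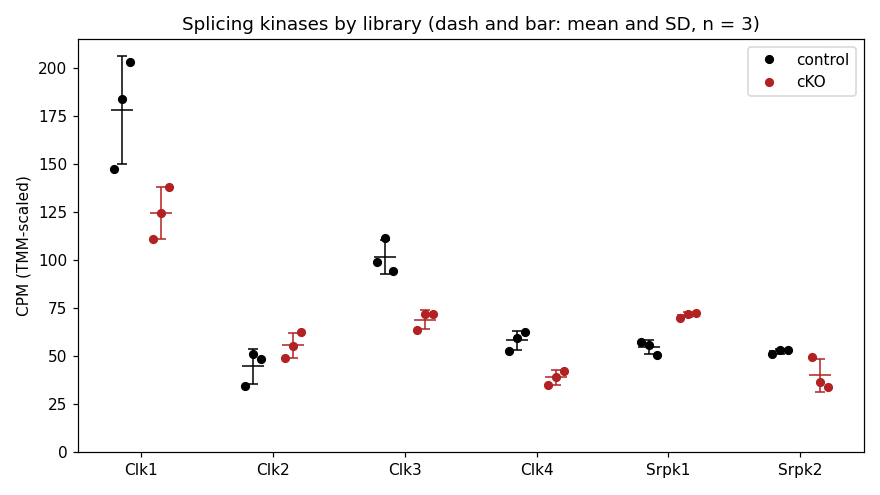
CPM of the 6 splicing kinases in each library, with the mean and SD of 3 libraries per group. Clk1, Clk3 and Clk4 are lower in all 3 cKO libraries than in any control library, Srpk1 is higher in all 3, and the Clk2 groups overlap.

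Clk1 and Clk4 share an alternative exon, shown here because the transcripts that skip it were among the 3 member transcripts that were lower beyond 1.5-fold. The exon has 91 bases in both genes, is exon 4 of 13, is coding and is not a multiple of 3 long, so skipping it alone shifts the reading frame. In GRCm38 it lies at chr1:58420121-58420211 (minus strand) in Clk1 and at chr11:51273078-51273168 (plus strand) in Clk4. The sequences are from the GENCODE M21 transcripts, and the capitals mark the 6 positions at which they differ (93.4% identity).
Clk1: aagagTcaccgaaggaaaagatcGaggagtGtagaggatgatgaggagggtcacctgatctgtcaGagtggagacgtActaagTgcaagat
Clk4: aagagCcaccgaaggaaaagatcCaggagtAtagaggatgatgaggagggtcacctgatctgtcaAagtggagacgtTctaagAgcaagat

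The Clk1 transcript that lacks this exon, NR_027853, had 1598, 1716 and 1132 counts in cKO and 2568, 2373 and 3014 in control, and fell (log2 fold change -0.93 ± 0.163, adjusted p = 0.0107). The Clk4 transcript that lacks it, NM_001304744, also lacks a 161-base exon; it had 240, 269 and 353 counts against 640, 633 and 445 and fell (log2 fold change -1.07 ± 0.252, adjusted p = 0.0291). The Clk1 form stayed past both limits whichever single library was left out. The Clk4 form did not without cKO 1, cKO 2, control 1 or control 2, nor with Xist level as a covariate. Of the coding forms that hold the exon, NM_007714 of Clk4 fell (log2 fold change -0.46 ± 0.126, adjusted p = 0.0458), and NM_001042634 of Clk1 had 398, 546 and 1145 counts against 1121, 1832 and 2312 without passing in edgeR (log2 fold change -1.41 ± 0.51, adjusted p = 0.102), while it was past both limits in DESeq2 and without cKO 3. The Clk1 transcript with the most counts, NR_027854, shares its GENCODE entry with NM_001042634, so it is listed as holding the exon but its own structure was not resolved. It made up 60.4% ± 0.719 of the gene's counts in cKO and 40.9% ± 4.19 in control (SD, n = 3), and its level was 75.4 ± 8.86 CPM in cKO and 72.2 ± 5.44 CPM in control (log2 fold change 0.06, adjusted p = 0.736). The use of transcripts within the gene did not pass for Clk1 (adjusted p = 0.759) or Clk4 (adjusted p = 1).

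The hnRNPs held most of the larger increases. Of 20 hnRNP genes 10 rose, 5 fell and 5 did not pass, and their median log2 fold change was 0.17. Hnrnpd encodes AUF1, which binds AU-rich elements and affects mRNA decay as well as splicing. It stood at 596, 632 and 629 CPM in cKO and 368, 366 and 383 CPM in control, so the groups were far apart, at 1.66-fold (log2 fold change 0.735 ± 0.0479, adjusted p = 2.59e-06). Hnrnpab, a close relative of Hnrnpd, was at 1029, 1207 and 1069 CPM against 701, 643 and 738 CPM, or 1.59-fold (log2 fold change 0.67 ± 0.069, adjusted p = 3.35e-05). Hnrnph3, a small member of the hnRNP H family, was at 44.5, 43.3 and 52.1 CPM against 25.2, 27.7 and 27.6 CPM, or 1.74-fold (log2 fold change 0.80 ± 0.0933, adjusted p = 7.23e-05).

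Hnrnpdl, another gene of the Hnrnpd family, rose 1.37-fold, from 232, 212 and 229 CPM in control to 297, 320 and 303 CPM in cKO (adjusted p = 8.1e-05). It lies 54638 bases from Hnrnpd on the same strand of chromosome 5, with 1 gene between them. Hnrnpc, whose protein packages nascent pre-mRNA, rose 1.43-fold, with cKO libraries at 559 to 594 CPM and control libraries at 395 to 405 CPM (adjusted p = 1.43e-05). Hnrnpu, a nuclear scaffold protein and the hnRNP gene with the most counts in the cKO libraries, rose 1.34-fold, from 875 to 927 CPM in control to 1167 to 1255 CPM in cKO (adjusted p = 4.16e-05). Hnrnpf, Hnrnph1, Hnrnpr and Hnrnpa2b1 rose by less, with log2 fold changes of 0.15 to 0.22.

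**Figure D3:**
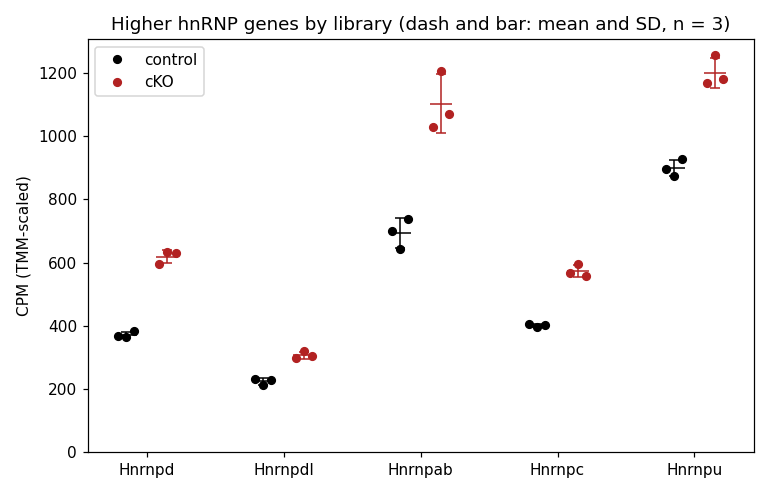
CPM of 5 hnRNP genes that were higher in cKO, in each library, with the mean and SD of 3 libraries per group. In each of the 5 genes the 3 cKO libraries lie above the 3 control libraries.

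The 5 hnRNP genes that fell were Hnrnpm, Hnrnph2, Hnrnpul1, Hnrnpl and Hnrnpa3, with log2 fold changes of -0.37 to -0.17. Hnrnpm, a regulator of alternative exons, was at 352, 376 and 352 CPM in cKO and 462, 438 and 491 CPM in control (log2 fold change -0.37 ± 0.0569, adjusted p = 0.000449). Hnrnpl, which represses variable exons of Ptprc (CD45), was at 459, 466 and 461 CPM against 538, 518 and 550 CPM (log2 fold change -0.21 ± 0.0457, adjusted p = 0.00328). Its paralog Hnrnpll, which is known for CD45 splicing in lymphocytes and plasma cells, had few counts: 6.39, 6.74 and 5.45 CPM against 5.16, 5.19 and 4.57 CPM, with no overlap between groups but no pass either (log2 fold change 0.32 ± 0.157, adjusted p = 0.124). The fall of Hnrnpa3 (adjusted p = 0.0327) was lost when any 1 of 4 libraries was left out, cKO 1, cKO 2, control 1 or control 2, and with Xist level as a covariate (adjusted p = 0.109). Hnrnpa1, Hnrnpa0, Hnrnpk and Hnrnpul2 did not pass, and the 95% interval of Hnrnpa1 ran from -0.23 to 0.33 on the log2 scale.

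Among the canonical SR proteins 5 of 8 rose, 1 fell and 2 did not pass. That is 62.5% higher and 12.5% lower, against 24.1% and 24.5% of all genes tested. Srsf1, an enhancer-binding SR protein that can act as an oncoprotein, was at 525, 563 and 556 CPM in cKO and 377, 388 and 392 CPM in control, or 1.42-fold (log2 fold change 0.51 ± 0.0484, adjusted p = 2.01e-05). Srsf2, which binds exonic enhancers in the nucleus, was at 559, 624 and 606 CPM against 449, 423 and 474 CPM, or 1.33-fold (adjusted p = 0.000298). In both genes every cKO library lay above every control library. Srsf7, Srsf4 and Srsf9 rose with log2 fold changes of 0.23 to 0.26, and the groups overlapped for Srsf9, whose adjusted p of 0.038 was lost without cKO 2, cKO 3, control 1 or control 2, and with Xist level as a covariate (adjusted p = 0.0761). Srsf5 fell, from 465, 458 and 489 CPM in control to 395, 412 and 404 CPM in cKO (log2 fold change -0.22 ± 0.0482, adjusted p = 0.00353). Srsf3 and Srsf6 did not pass, with log2 fold changes of 0.08 and -0.12.

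Of the 5 other SRSF and TRA2 genes 4 rose (80.0%, against 24.1% of all genes tested) and Srsf11 did not pass. Srsf10, a repressor of splicing when dephosphorylated, was at 311, 343 and 322 CPM in cKO and 220, 222 and 244 CPM in control, or 1.42-fold (log2 fold change 0.51 ± 0.0595, adjusted p = 7.1e-05). Tra2a and Tra2b, which bind purine-rich enhancers, each rose with a log2 fold change of 0.25. Srsf12 had the largest fold change of all members, 3.57-fold, on few reads: 34, 27 and 31 counts in cKO and 6, 6 and 12 in control (log2 fold change 1.84 ± 0.561, adjusted p = 0.0204). It no longer passed without cKO 1, cKO 3, control 1 or control 2.

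Of 4 nuclear SR-related proteins 2 fell, 2 did not pass and 0 rose. Srrm1, a coactivator that bridges SR proteins and the spliceosome, was at 292, 316 and 296 CPM in cKO and 364, 356 and 374 CPM in control and fell (log2 fold change -0.27 ± 0.0505, adjusted p = 0.00132). Rbm39, a U2AF-related factor, fell as well (log2 fold change -0.23 ± 0.0566, adjusted p = 0.00774). Srrm2 and Son, which form the core of nuclear speckles, did not pass, and the 95% interval of Son was -0.07 to 0.12 on the log2 scale. Of the PTBP proteins, which repress exons next to pyrimidine-rich tracts, Ptbp2 fell (log2 fold change -0.27 ± 0.0868, adjusted p = 0.0249), a call lost without cKO 1, cKO 3, control 2 or control 3. Ptbp1, the PTBP gene with the most counts, was at 830, 866 and 798 CPM against 811, 755 and 872 CPM, with overlapping groups (adjusted p = 0.677). Ptbp3 had a log2 fold change of -0.11 and an adjusted p of 0.0552.

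The U2 snRNP subunits moved in both directions. The SF3a genes Sf3a1, Sf3a2 and Sf3a3 all rose, with log2 fold changes of 0.26 to 0.31. Within SF3b, Sf3b3 rose 1.41-fold, from 334, 304 and 310 CPM in control to 430, 462 and 449 CPM in cKO (adjusted p = 4.55e-05). Sf3b1, the subunit that clamps the branch point, fell from 802, 789 and 827 CPM to 653, 653 and 601 CPM (log2 fold change -0.34 ± 0.0488, adjusted p = 0.000255), and Sf3b2 fell too (log2 fold change -0.24 ± 0.0439, adjusted p = 0.0011). In each of these 3 SF3b genes the groups did not overlap. Sf3b4, Sf3b5 and Sf3b6 did not pass. U2af2, which binds the pyrimidine tract, rose (log2 fold change 0.23 ± 0.0519, adjusted p = 0.00385), while its partner U2af1, which reads the 3′ splice site, was at 92.2, 106 and 91.1 CPM against 91.1, 95.8 and 95.4 CPM (adjusted p = 0.715).

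The members' 116 RefSeq transcripts were compared next, with estimated counts that StringTie had divided among overlapping forms. Of these, 114 were tested; 31 were higher and 15 lower by adjusted p, against 12.4% higher and 12.7% lower of all transcripts tested. With the 1.5-fold limit 11 were higher and 3 lower, against 6.26% and 6.80% of all transcripts. The 3 lower transcripts were the exon-skipping forms of Clk1 and Clk4 and a minor transcript of Son, NM_019973, at 2154, 1984 and 2048 counts in cKO and 3897, 3360 and 2377 in control. The Son call did not hold without cKO 1, cKO 2, cKO 3, control 1 or control 2, nor with Xist level as a covariate. The main Srsf1 transcript, NM_173374, rose (log2 fold change 0.64 ± 0.0552, adjusted p = 0.00132), while the alternative NM_001078167 had a log2 fold change of -0.11 and did not pass. For Srsf3, Srsf7 and Srsf9 the table holds transcripts that RefSeq lists as non-coding, NR_036613, NR_036615 and NR_036616. The log2 fold changes of the first 2 were -0.04 and 0.13. NR_036616 of Srsf9 had 147, 139 and 321 counts in cKO and 55, 96 and 79 in control, with no overlap, and did not pass in edgeR (log2 fold change 1.32 ± 0.492, adjusted p = 0.112), while DESeq2 called it higher.

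Hnrnpd has 4 forms in the table, which combine 2 coding cassette exons of 57 and 147 bases. Both lengths are multiples of 3, so each form keeps the reading frame. In GRCm38 the exons lie on the minus strand, at chr5:99976534-99976590 (exon 2 of 8) and chr5:99963731-99963877 (exon 6 of 8). Hnrnpab has a 141-base cassette exon at chr11:51601750-51601890 (minus strand, exon 7 of 8). The 147-base and 141-base exons are printed for comparison from GENCODE M21, with capitals marking each base that lies in a word of 8 letters found in both; overlapping words run together, so a whole run of capitals need not occur in the other exon.
Hnrnpd: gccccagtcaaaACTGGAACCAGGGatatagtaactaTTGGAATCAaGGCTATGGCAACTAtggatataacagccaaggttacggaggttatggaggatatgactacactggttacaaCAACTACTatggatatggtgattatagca
Hnrnpab: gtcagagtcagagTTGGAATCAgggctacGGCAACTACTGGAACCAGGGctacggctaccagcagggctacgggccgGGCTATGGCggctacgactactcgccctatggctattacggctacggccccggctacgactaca

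NM_007516, which holds the 57-base exon and skips the 147-base exon, had 7310, 7338 and 7858 counts in cKO and 3225, 2459 and 2730 in control (log2 fold change 1.35 ± 0.0815, adjusted p = 0.000694). Its share of the gene's counts was 27.4% ± 1.85 in cKO and 17.9% ± 1.27 in control (SD, n = 3), with no overlap. NM_001077265, which holds both exons, rose less (log2 fold change 0.55 ± 0.064), and its share was 42.5% ± 1.68 against 48.2% ± 1.83. NM_001077266, which holds the 147-base exon alone, rose about as the whole gene did (log2 fold change 0.745 ± 0.0451, adjusted p = 0.000694), and its share was 18.4% ± 0.536 against 18.2% ± 0.669. NM_001077267, which holds neither, rose least (log2 fold change 0.32 ± 0.0579). In Hnrnpab the form with the 141-base exon, NM_001048061, rose with a log2 fold change of 0.82 ± 0.0469 and the form without it with 0.51 ± 0.117.

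**Figure D4:**
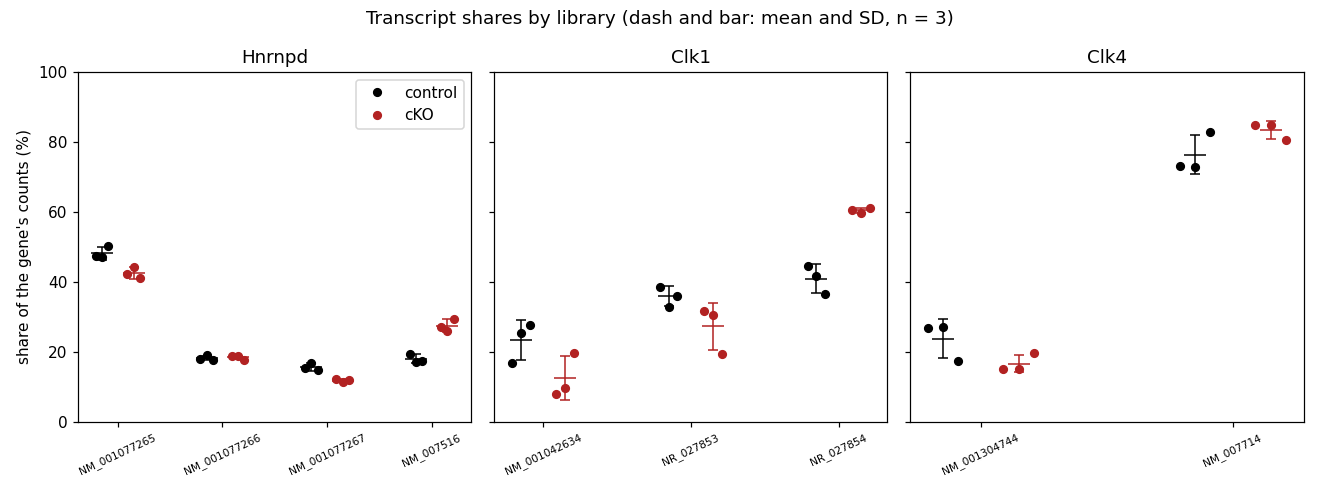
Share of the gene's counts taken by each transcript of Hnrnpd, Clk1 and Clk4 in each library, with the mean and SD of 3 libraries per group. NM_007516 of Hnrnpd and NR_027854 of Clk1 take a larger share in all 3 cKO libraries than in any control library.

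Transcript use could be tested in 30 members, and 0 passed at an adjusted p under 0.05 (diffSpliceDGE with Simes' method), against 1.37% of all genes tested; 4 had an unadjusted p under 0.05, namely Son, Hnrnpd, Srsf1 and Hnrnpa2b1. With the gene-level F test of the same fit 2 passed, Hnrnpd and Son, where 3.28% of all genes passed. The Simes test missed most of the changes simulated in transcript use, so its 0 does not show that transcript use was alike. Of 15 genes known as targets of these regulators 10 could be tested and 0 passed, with 2 at an unadjusted p under 0.05. These were Pkm (adjusted p = 0.11 in the edgeR fit), whose exon choice depends on PTBP1 and hnRNP A1, and Mdm4 (adjusted p = 0.296 in the edgeR fit), a regulator of p53. For Ptprc, with 2 transcripts tested, the adjusted p was 1, and inclusion of its variable exons was not measured.

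Of 134 other splicing genes 131 were tested, of which 57 rose and 25 fell, 10 and 4 of them beyond 1.5-fold, and their median log2 fold change was 0.12. The higher share of 43.5% lay above the 24.1% of all genes, the lower share of 19.1% below the 24.5%, and the counts beyond 1.5-fold below the shares of 10.4% and 10.6%. The tri-snRNP list had 13 of 22 higher and 2 lower; Prpf8, the core of the spliceosome, rose with a log2 fold change of 0.74 ± 0.0445, and Prpf31 and Lsm7 also exceeded 1.5-fold. The Prp19 complex and step factors had 6 higher and 9 lower of 26 (23.1% and 34.6%), with Prpf19 at 0.91 ± 0.0563 and the helicase Dhx8 at -0.62 ± 0.0599. Of 21 snRNP core, U1 and U2 proteins 11 rose and 3 fell, led by the Sm protein Snrpd3 (0.90 ± 0.0714), and of 9 exon junction complex genes 4 rose. Of 38 other alternative splicing regulators tested 18 rose and 7 fell; Rbmx (0.93 ± 0.0712), Syncrip (0.77 ± 0.0523) and Scaf4 (0.74 ± 0.0603) rose beyond 1.5-fold, and Celf2 fell beyond it (-0.67 ± 0.0551). Of 8 minor spliceosome genes 3 rose and 1 fell, and of 7 other splicing kinases 2 rose and 3 fell, Dyrk1b the farthest (-0.62 ± 0.104).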

How the data were processed

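The authors aligned reads with HISAT2 to mm10 and assembled them with StringTie (versions not given in the sources used here); the deposited gene and transcript tables hold estimated counts, all whole numbers, from StringTie's read coverage. Reads shared by overlapping forms or genes are divided by that estimate, which bears most on transcript shares. Of 36026 transcripts, 34674 were matched to genes through RefSeq (GRCm38.p6). Genes were filtered with filterByExpr (minimum count 10), scaled by TMM and tested with the edgeR 4.0.16 quasi-likelihood test (R 4.3.3), without a replicate block. Rose and fell mean an adjusted p under 0.05; the stricter rule adds 1.5-fold. Transcript use was tested with diffSpliceDGE. DESeq2 1.42.0, other scalings, filters, counts divided by 2, Xist level and leaving out each library were alternatives. The gene-level edgeR and DESeq2 tests and the Simes test of transcript use were run on simulated data. Gene-level fold changes in edgeR and the false call rates of edgeR and the Simes test came out as simulated. Recovery was lower for variable genes and much lower for transcript use. Transcript-level fold changes, the F test, the Xist covariate, the replicate block and the test against 1.5-fold were not simulated. A first pass mark on the share recovered was not met and was replaced by marks on error and false calls. The members and lists were chosen with earlier results of these data known. By rule, values are given for members past both limits, the kinases, the extremes of each role, and Hnrnpll, U2af1 and Sf3b1; the others named (such as Hnrnpdl, Hnrnpc, Srsf2, Rbm39, Sf3b2 and Ptbp3) were chosen after their values were seen. Gene positions are from GENCODE M21. With 3 libraries per group an exact permutation test of a single value cannot go below p = 0.1, so none was used.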

Additional observations from a re-analysis of the deposited data

How the results depend on the processing

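The direction and the call of all 40 members that passed held under DESeq2, both other scalings, no filter on low counts and counts divided by 2. With at least 10 counts in every library 39 held and Srsf12 was not tested. The replicate block lost 1 of them (Hnrnpa3), the Xist covariate 2 (Hnrnpa3 and Srsf9), and leaving out a library 2 to 5. Members that passed only under an alternative were Clk2 (DESeq2, adjusted p = 0.0292, and the replicate block, adjusted p = 0.0145), Sf3b5 (library totals, and at least 10 counts in every library), Ptbp3 (counts divided by 2), and, with 1 library left out, Hnrnpk, Srsf6 and Srrm2. The 4 members higher beyond 1.5-fold became 25 with no fold limit and 1 when tested against 1.5-fold. The 0 members lower beyond 1.5-fold became 15 with no fold limit and 1 (Clk4) with the Xist covariate, and 0 to 3 (Clk1, Clk3 and Clk4) when 1 library was left out. Of the other splicing genes, 10 higher and 4 lower became 57 and 25 with no fold limit. Member transcripts lower by both limits numbered 3, 4 in DESeq2 (which adds NM_001042634 of Clk1), 2 with the Xist covariate (NR_027853 of Clk1 and NM_144904 of Ptbp3), and 1 to 4 when 1 library was left out. Members with a change in transcript use numbered 0; the count was 1 (Hnrnpd) with at least 10 counts in every library, 2 with the F test and 0 to 1 (Son) when 1 library was left out. Members that had not passed and changed sign when 1 library was left out were Hnrnpa1 (log2 fold change -0.071 to 0.183), Ptbp1 (-0.026 to 0.087), Sf3b4 (-0.072 to 0.016) and U2af1 (-0.037 to 0.071). The causes were not tested.

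Replicate numbers were not shown to pair the samples: deviations of same-numbered libraries correlated at 0.003, 0.15 and 0.25. With the replicate block the members numbered 26 higher and 14 lower by adjusted p, and member transcripts lower by both limits 1 in place of 3; that one was NM_001042634 of Clk1. The exon-skipping forms of Clk1 and Clk4 did not meet both limits in that fit.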
